A study of Mus musculus with 4 samples.

Results

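The actin cytoskeleton and motility regulators described here are 47 genes chosen by symbol for their function, from the actins themselves to the proteins that bind, cut, bundle, nucleate and pull on filaments. Of these, 45 were measured among 18194 genes, each from 1 probe set, the one whose mean across the 4 arrays was highest. Diap1 is the older symbol of Diaph1 and was read under the current one. The Arp2/3 subunit gene Arpc1b was read only by probe sets that carry several gene symbols, so it was named from none, and Actr2 was not analysed here. Dendritic cells were derived from C57BL/6 bone marrow, and 2 samples received SAHA (500 nm, as the labels write the dose) and 2 received diluent (control), each for 12 hours. SAHA, or vorinostat, inhibits histone deacetylases, the enzymes that take acetyl groups off histones and other proteins. All 4 samples came from marrow cultured for 7 days in GM-CSF and IL-4 (10 ng/ml each) and from cells then selected for CD11c to a stated purity of 95%. Marrow of at least 3 mice was used per experiment. Whether each array had its own marrow pool is not said, although the labels call them biological replicates, so p-values measure only the spread between these arrays.

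Dendritic cells crawl through tissue and probe it with actin-rich veils and dendrites. In the resting cell much of the actin is held as monomer by thymosins and profilins. Nucleators such as the Arp2/3 complex and the formins start new filaments, bundlers such as fascin stack them into dendrites, cofilins and gelsolins take them apart, and myosin II pulls on them. Fascin is known as a marker of mature dendritic cells, and profilins feed actin monomer to growing filament ends.

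With SAHA, Pfn2, Cnn3 and Gsn rose and Pfn1 and Capg fell. Pfn2 (profilin 2) rose 6.47-fold and Cnn3 (calponin 3, which decorates actin filaments) rose 5.17-fold. The other probe sets of both genes gave smaller rises. Gsn (gelsolin, which severs and caps filaments) rose 1.76-fold. Pfn1 (profilin 1, the widespread profilin) fell by 0.65 and Capg (a gelsolin-family protein that caps filaments without cutting them) fell by 0.61 on the log2 scale. The other 40 measured members did not pass the threshold, a Benjamini-Hochberg adjusted p under 0.05 over all genes in limma. Thus 5 of 45 members passed, where 2.23% of all genes did, with 3 of 45 higher (1.52% of all genes) and 2 lower (0.709% of all genes). These shares describe a list chosen with earlier results of these data known, and test nothing. Without the intensity trend in the spread 2 members passed, Pfn2 and Cnn3, while 2.30% of all genes did, and with values floored at the 20th percentile limma called none of the members (11 at an unadjusted p under 0.05) and no gene at all (3034 at an unadjusted p under 0.05). The median log2 difference (SAHA minus control) was -0.10 over the 45 members and -0.05 over all genes, and 31 of the 45 members lay below 0, against 58.8% of all genes. Most members were bright, and 41 of the 45 lay above the median level of genes. Those 41 had a median of -0.09, with 28 below 0, whereas the 9097 genes above that level had a median of 0.03, with 4232 below 0 and 3.20% past the threshold. A gene's level here is its mean over all 4 arrays, and Pfn2 and Cnn3 were among the 41 through their SAHA arrays. Their control means of 6.00 and 5.86 were near that of Tpm2 (5.94), a member below the median level. In 25 members the SAHA arrays did not overlap the control arrays, 7 on the higher and 18 on the lower side, against 50.7% of all genes (21.1% higher and 29.6% lower). The 18 include Cnn1 and Myl9, which were under the 25th percentile on all 4 arrays. Above the median level the counts were 7 higher and 16 lower of the 41 members, and 2842 higher and 2355 lower of the 9097 genes. The plot of changes by role sets the intervals side by side.

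**Figure D1:**
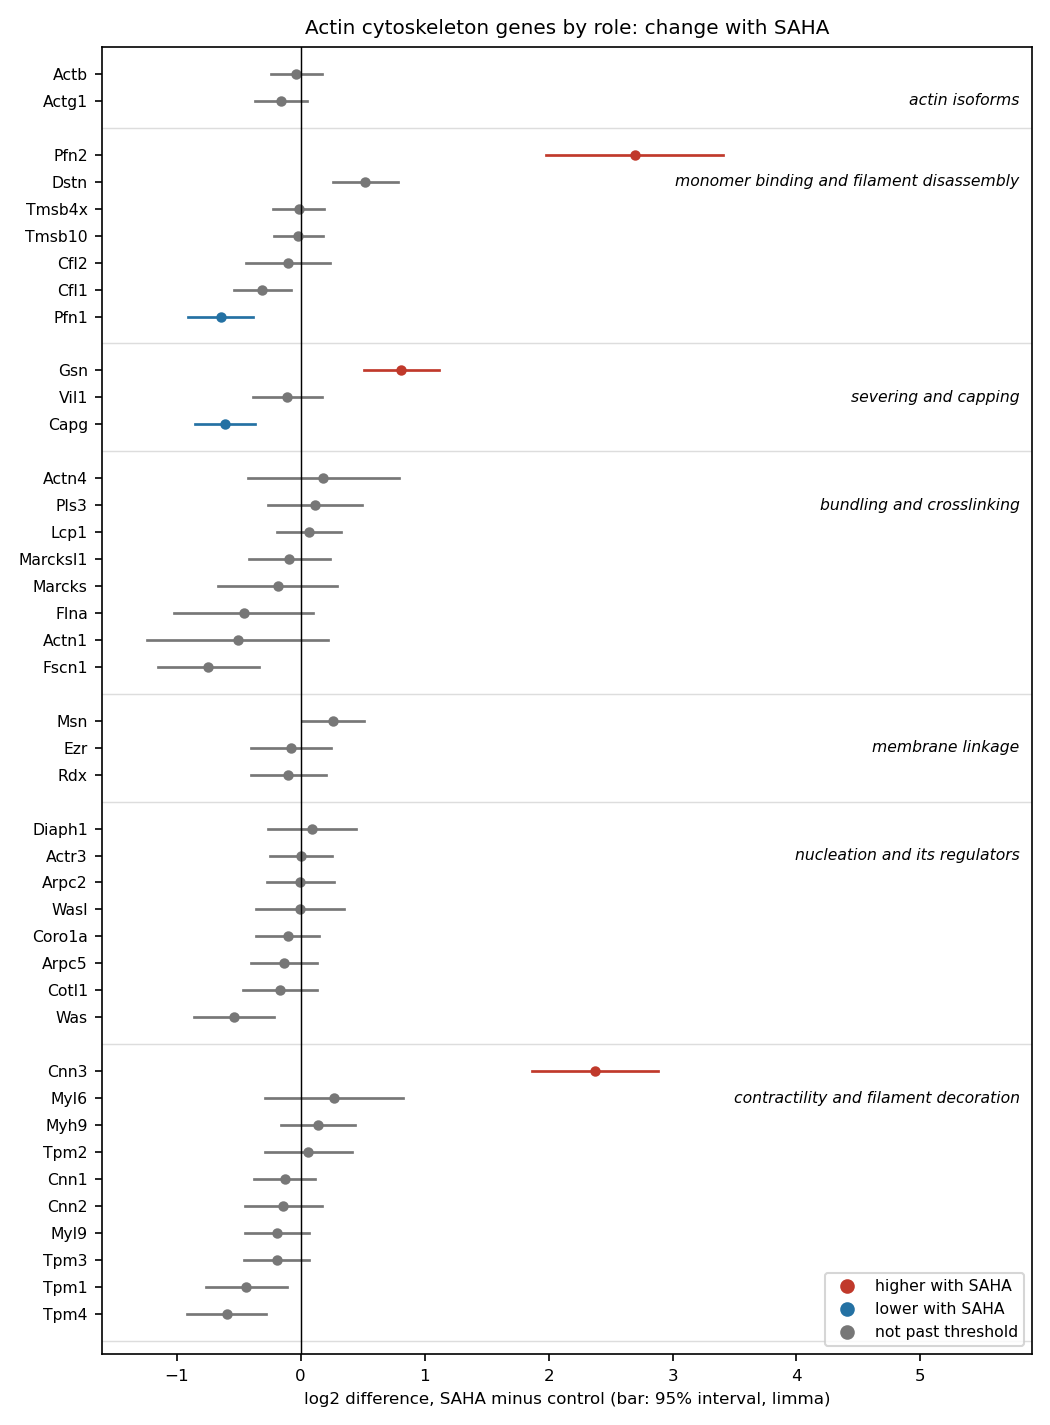
Log2 difference between SAHA and control arrays for 41 measured actin genes, grouped by role, with 95% intervals from limma (n = 2 arrays per group). Pfn2 at 2.69 and Cnn3 at 2.37 stand apart on the higher side, and the other 39 genes lie between -0.74 and 0.81.

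Precision differed between members. Of the 40 that did not pass, 37 had a 95% interval that lay within 2-fold in either direction and 29 had one within 1.5-fold. In 8 of the 40 the interval left out 0 before adjustment. Over all 18194 genes, called ones included, the counts were 16229 within 2-fold, 10563 within 1.5-fold and 3287 (18.1%) leaving out 0. Over all 45 members, again with called ones, they were 39, 29 and 13. The members were chosen with earlier results known, so these counts test nothing. The smallest two-sided p that an exact permutation test of a single gene allows with these 4 arrays is 0.333, so every p-value given here comes from limma, which shares the spread across genes. In bulk RNA of this kind, fewer cells of a type and less RNA per cell cannot be told apart.

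The arrays carried the marks of the labelled cell type, and markers of macrophages and monocytes were bright as well. Of 12 dendritic cell markers 11 lay above the median level of genes, with H2-Aa at 14.30 and 14.45 log2 units in SAHA and 14.20 and 14.37 in control cells, and Cd209a was the exception. Of the 12, Irf4 rose. All 8 measured macrophage and monocyte markers also lay above the median level of genes. Their sums on the linear scale were 48298 to 56498 in SAHA and 51297 to 57935 in control cells. Across genes, which are no independent replicates, Pearson's r between arrays was 0.995 for the SAHA and 0.993 for the control pair, and 0.982 to 0.989 between groups. The 3' control probe set of beta-actin less its 5' one, which reads RNA quality, gave log2 differences of 0.24 and 0.26 on the SAHA and 0.23 and 0.16 on the control arrays. The same difference for Gapdh was -0.13 and 0.00 on the SAHA and -0.11 and -0.21 on the control arrays. These beta-actin probe sets read close to the highest value on any array, and whether they were saturated was not tested. Of 9 neutrophil markers 5 were lower, with a list median of -0.82, while their summed level on the linear scale was 8595 to 10157 in SAHA and 6675 to 8869 in control cells, the collagenase gene Mmp8 being the member with the highest mean. Mmp8 was at 0.86 (limma adjusted p = 0.143), and each of the other measured neutrophil markers lay below 0, from -0.25 to -1.88. Of 6 megakaryocyte and platelet markers none passed and the list median was -0.01, while their sum was 15516 to 16307 in SAHA and 11857 to 12204 in control cells. Of these the bright chemokine gene Ppbp read 12.89 and 12.80 in SAHA and 12.28 and 11.79 in control cells (log2 0.81 ± 0.17, SE, adjusted p = 0.0773). Treml1 and the equally bright Pf4 were at 0.40 and 0.17, whereas Gp6, Itga2b and Gp9 were at -0.78, -0.19 and -0.18. Neutrophil and platelet markers were not under the 25th percentile of all 4 arrays for any gene, and their part in the results below was not tested. Of 10 fibroblast and smooth muscle markers, which matter for calponins and tropomyosins, none passed, Acta2 alone lay above the median level, Col3a1 was under the 25th percentile on all 4 arrays, and the sums were 540 to 622 in SAHA and 552 to 607 in control cells. Among 8 macrophage and monocyte, 6 mast cell and basophil, 3 erythroid, 4 B cell and 5 T and NK cell markers none passed, with list medians of -0.08, -0.08, -0.07, -0.25 and -0.10. Those under the 25th percentile on all arrays were Mcpt8, Ms4a2 and Fcer1a of mast cells and basophils, and Cd3g of T cells.

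Among the monomer-binding and disassembly proteins, the profilins moved in opposite directions. Pfn2 read 9.14 and 8.25 log2 units on the SAHA arrays and 6.13 and 5.87 on the control arrays. These control values lay above but close to the array medians of 5.34 to 5.35, and whether they stood above background was not tested. The groups did not overlap, although the SAHA arrays lay further from each other than the control arrays did. The mean was 8.69 ± 0.63 in SAHA and 6.00 ± 0.19 in control cells (SD, n = 2 each), a log2 difference of 2.69 ± 0.30 (SE, limma adjusted p = 0.0158). Pfn1 read 12.35 and 12.34 in SAHA and 13.05 and 12.92 in control cells. Again the groups did not overlap, and the log2 difference was -0.65 ± 0.11 (SE, adjusted p = 0.0422), 1.56-fold lower with SAHA. Levels of the profilins come from different probe sets and cannot be set against each other. Pfn1 was read by 1 probe set alone, and its call was lost in each fit that left out an array (adjusted p = 0.265 and 0.174 with SAHA replicate 1 or 2 left out, 0.0973 and 0.0636 with control replicate 1 or 2 left out) and without the intensity trend (0.0638), while the difference stayed between -0.71 and -0.58. Pfn2 passed in each fit that left out an array, with differences of 2.25 to 3.14 and an adjusted p of 0.0467 at most.

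The Pfn2 probe sets gave the same direction but unlike sizes. The probe set used above, 1418209_a_at, gave the 2.69. A further probe set, 1418210_at, read 8.02 and 7.17 in SAHA and 6.11 and 5.48 in control cells, a difference of 1.81 ± 0.33 (SE, adjusted p = 0.0896 over all probe sets). The last one, 1436993_x_at, whose suffix marks probes that may also match other transcripts, read 5.44 and 4.70 in SAHA and 4.47 and 4.13 in control cells, a difference of 0.77 ± 0.26 (adjusted p = 0.254). In all of them both SAHA arrays lay above both control arrays, but the mean of the 3 probe sets, at 1.76, missed the threshold (adjusted p = 0.0565).

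The thymosins, which hold actin as monomer, and the cofilin family, which severs and depolymerises filaments, showed smaller differences. Tmsb4x and Tmsb10 had log2 differences of -0.01 and -0.02, with SEs of 0.09 and 0.08. These probe sets too read close to the highest value on any array, from 14.64 to 14.80, and a less bright Tmsb10 probe set, at 12.84 and 12.91 in SAHA and 12.95 and 13.07 in control cells, gave -0.14 (adjusted p = 0.567 over all probe sets). Dstn (destrin, of the cofilin family) read 12.87 and 12.76 in SAHA and 12.25 and 12.33 in control cells, a difference of 0.52 ± 0.11 (SE, adjusted p = 0.0708). Cfl1 (the non-muscle cofilin) read 13.22 and 13.19 in SAHA and 13.53 and 13.49 in control cells, a difference of -0.31 ± 0.10 (adjusted p = 0.167). The groups did not overlap in either gene, with SAHA higher for Dstn and lower for Cfl1, and neither gene passed. Dstn and Cfl1 were named after their values were seen. Cfl2 (muscle cofilin) was at -0.10, while dimmer Cfl2 probe sets gave 0.41 (limma adjusted p = 0.337 over all probe sets) and 0.07. Over the 7 genes of this role, 1 rose, 1 fell and the median was -0.02.

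**Figure D2:**
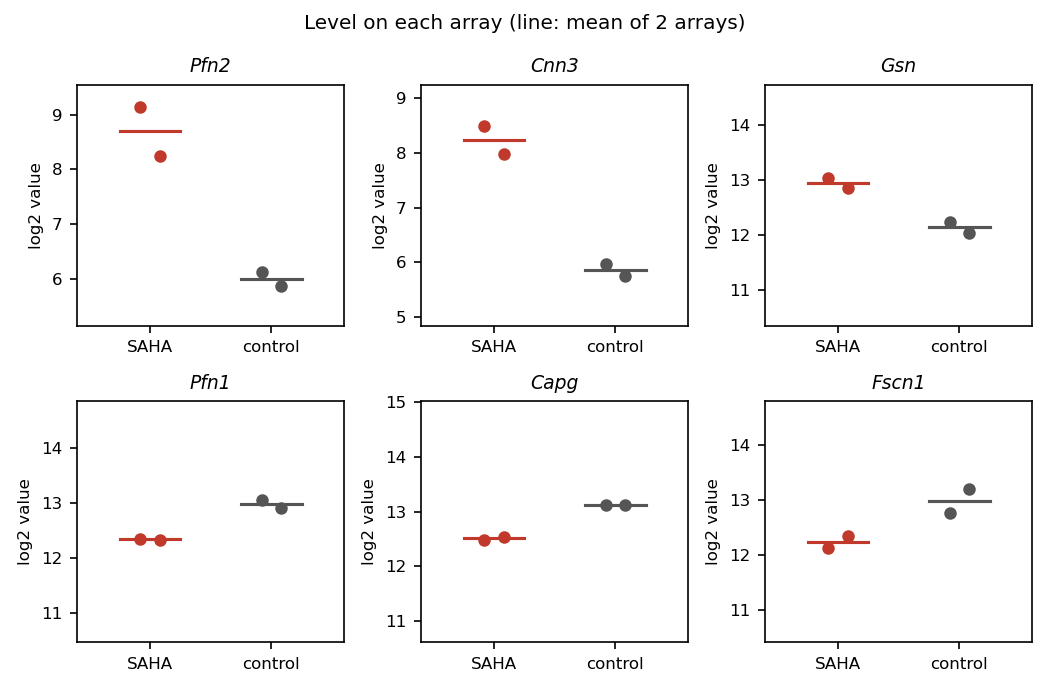
Log2 value on each array for the 5 genes past the threshold and for Fscn1, SAHA left and control right, with a line at the mean of 2 arrays; each panel spans the same range of log2 units. In all 6, which were picked by their differences, the SAHA arrays do not overlap the control arrays, as in 50.7% of all genes. The gaps are widest for Pfn2 and Cnn3.

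In the gelsolin family, which cuts and caps filaments, Gsn and Capg also went opposite ways. Gsn read 13.04 and 12.87 on the SAHA arrays and 12.23 and 12.05 on the control arrays, a log2 difference of 0.81 ± 0.12 (SE, adjusted p = 0.0370). Capg read 12.49 and 12.54 in SAHA and 13.13 and 13.11 in control cells, a difference of -0.61 ± 0.10 (adjusted p = 0.0417), 1.52-fold lower with SAHA. In both genes the gap between the groups was larger than the distance between arrays of 1 group. Vil1 (villin, of microvilli) lay under the 25th percentile of every array, at 3.66 and 3.87 in SAHA and 3.92 and 3.82 in control cells. Of the Gsn probe sets, 4 had every array above that percentile, and they gave differences of 0.81, 0.94, 1.11 and 1.15. In the fit over all probe sets the pair at 0.94 and 1.11 passed (adjusted p = 0.0404 and 0.0314), and the brightest, used above, gave the smallest of the 4 and missed the threshold there (0.0577). The second Capg probe set read 4.22 and 4.37 in SAHA and 4.75 and 4.80 in control cells, a difference of -0.48 (adjusted p = 0.182). Gsn kept its call without control replicate 1 (adjusted p = 0.0345) and lost it when SAHA replicate 1 (0.234), SAHA replicate 2 (0.101) or control replicate 2 (0.0731) was left out, and without the intensity trend (0.0504). Capg lost it in every fit that left out an array, at 0.304, 0.163, 0.0872 and 0.0971 in the order SAHA 1, SAHA 2, control 1 and control 2, and without the intensity trend (0.0659).

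Among 8 bundling and crosslinking genes none passed, and the median was -0.14. Fscn1 (fascin, which packs filaments into the dendrites of mature dendritic cells) read 12.12 and 12.34 in SAHA and 12.76 and 13.19 in control cells. The groups did not overlap, and the log2 difference was -0.74 ± 0.17 (SE, adjusted p = 0.0890), the lowest of the 45 members. Its 3 further probe sets gave -0.83, -0.93 and -0.98, each with both SAHA arrays below both control arrays. Without control replicate 1 the difference was -0.96 and passed (adjusted p = 0.0331). Actn4 (alpha-actinin 4, a crosslinker) had the highest difference of this role, 0.18 ± 0.25, with 11.71 and 11.08 in SAHA and 11.46 and 10.96 in control cells, which overlap. Actn1 (-0.51), Flna (filamin A, -0.46), Marcks (-0.19), Marcksl1 (-0.09), Lcp1 (L-plastin of blood cells, 0.07) and Pls3 (T-plastin, 0.11) likewise overlapped between the groups. Actn1 and Flna had wide intervals, from -1.24 to 0.22 and from -1.02 to 0.10. Both passed, on the lower side, where the replicate number was added as a block, a fit that called 19.9% of all genes, and neither passed without it.

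No gene of the actins or of the nucleation machinery passed. Actb (beta-actin) read 14.69 and 14.66 in SAHA and 14.69 and 14.74 in control cells, a difference of -0.03 with a 95% interval of -0.24 to 0.17. Actg1 (gamma-actin) read 14.30 and 14.22 in SAHA and 14.42 and 14.42 in control cells, a difference of -0.16 with an interval of -0.37 to 0.05. The Actb values lay close to 14.97, the highest on any array, and whether these probe sets were saturated was not tested. Was (WASP, the blood cell activator of the Arp2/3 complex) had the lowest difference among 8 nucleation genes, with 9.17 and 9.24 in SAHA and 9.72 and 9.75 in control cells and a difference of -0.54 ± 0.13 (SE, adjusted p = 0.110). Its widespread relative Wasl (N-WASP) was at -0.01. Of the Arp2/3 subunits, Actr3 was at 0.01, Arpc2 at 0.00 and Arpc5 at -0.13, with SEs of 0.10 to 0.11. The formin gene Diaph1, which extends unbranched filaments, read 11.67 and 11.48 in SAHA and 11.62 and 11.34 in control cells, a difference of 0.09 ± 0.15, and Coro1a and Cotl1, which bind filaments in leukocytes, were at -0.10 and -0.17. No nucleation gene passed, and their median was -0.06.

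Calponins and tropomyosins lie along filaments, and myosin II pulls them. Cnn3 read 8.48 and 7.98 on the SAHA arrays and 5.96 and 5.75 on the control arrays. As for Pfn2, the control values lay close to the array medians, and whether they stood above background was not tested. The groups stood far apart, with a mean of 8.23 ± 0.36 in SAHA and 5.86 ± 0.15 in control cells (SD, n = 2 each) and a log2 difference of 2.37 ± 0.21 (SE, limma adjusted p = 0.0114). The call held in each fit that left out an array, with differences of 2.12 to 2.62 and an adjusted p of 0.0493 at most. The other calponins did not pass. Cnn2, the calponin of leukocytes and many other cells, had a difference of -0.14 ± 0.13 (SE, adjusted p = 0.606), and Cnn1, the smooth muscle calponin, was under the 25th percentile of every array, at 3.65 and 3.64 in SAHA and 3.70 and 3.85 in control cells.

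Cnn3 had 6 probe sets, of which 5 have the suffix for probes that may match other transcripts, including the one used above, 1436836_x_at. The probe set without that mark, 1426724_at, read 7.77 and 7.23 in SAHA and 6.07 and 5.83 in control cells, a difference of 1.55 ± 0.23 (SE, adjusted p = 0.0572 over all probe sets), or 2.92-fold. Its control mean of 5.95 was above the 5.86 of the probe set used. The choice by the mean over all 4 arrays therefore rested on the SAHA arrays and favoured the larger rise. The probe set 1455570_x_at read 5.61 and 5.35 in SAHA and 3.84 and 4.25 in control cells, a difference of 1.43 (adjusted p = 0.0421). The probe set 1436759_x_at read 5.28 and 4.84 in SAHA and 4.21 and 3.35 in control cells, a difference of 1.28 (adjusted p = 0.132). In both of these the groups did not overlap. The dimmest were 1456380_x_at, at 4.55 and 4.35 in SAHA and 3.62 and 3.82 in control cells, with a difference of 0.73 (adjusted p = 0.0828), and 1438354_x_at, at 3.61 and 3.30 in SAHA and 3.22 and 2.98 in control cells, with a difference of 0.35 (adjusted p = 0.309). Those last 4 had 1, 1, 2 and 4 arrays under the 25th percentile, so their differences are taken partly from values at the bottom of the scale. All 6 lay above 0, and their mean of 1.28 passed (adjusted p = 0.0297).

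**Figure D3:**
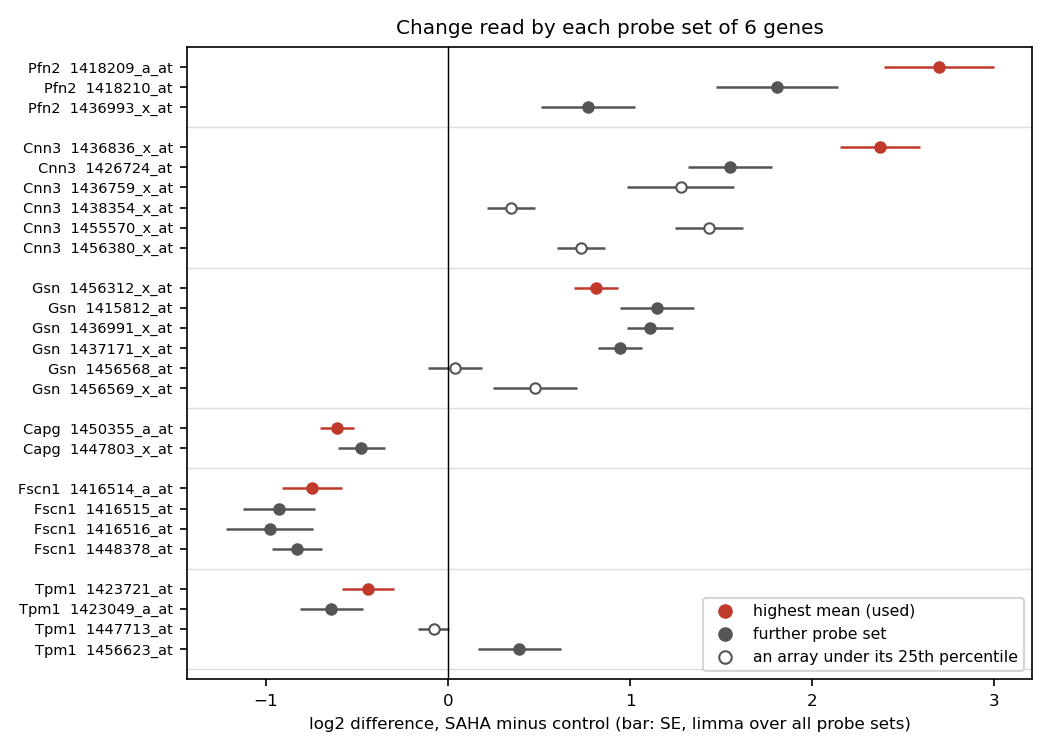
Log2 difference between SAHA and control for every probe set of 6 genes, with SE bars from limma over all probe sets; red marks the probe set used for the gene and open points have at least 1 array under its 25th percentile. The Pfn2 probe sets range from 0.77 to 2.69 and those of Cnn3 from 0.35 to 2.37, while the 4 Fscn1 probe sets lie together between -0.98 and -0.74.

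The tropomyosins, which guard filaments against cutting and set myosin's access, had negative differences in the 3 members above the median level of genes, none past the threshold. Tpm4 read 11.72 and 12.00 in SAHA and 12.45 and 12.47 in control cells, a difference of -0.60 ± 0.13 (SE, adjusted p = 0.0829), and Tpm1 read 9.93 and 9.78 in SAHA and 10.33 and 10.25 in control cells, a difference of -0.44 ± 0.13 (adjusted p = 0.167). Neither passed, although the groups did not overlap in either gene. Tpm1 was named after its value was seen, and its probe sets disagreed, since further ones gave -0.64 and 0.39. Tpm3 was at -0.19 and Tpm2 at 0.06. The myosin II heavy chain gene Myh9 was at 0.14 and the light chain gene Myl6 at 0.27, neither past the threshold, and the light chain gene Myl9 was under the 25th percentile of every array. Of the 10 genes of this role 1 rose and none fell.

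The membrane linkers held no gene past the threshold. Msn (moesin, the main linker of filaments to the membrane in leukocytes) read 13.31 and 13.24 in SAHA and 13.07 and 12.96 in control cells, a difference of 0.26 ± 0.10 (SE, adjusted p = 0.260). Rdx (radixin) read 10.57 and 10.71 in SAHA and 10.74 and 10.74 in control cells, a difference of -0.10 ± 0.13 (adjusted p = 0.715). Ezr (ezrin) was at -0.08, and a second Ezr probe set gave 0.67.

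Probe sets of a gene were not always in accord among the other members. Of 31 members with more than 1 probe set above the 25th percentile on all arrays, 11 had probe sets on both sides of 0, and in 22 all such probe sets lay within 0.5 of each other on the log2 scale. Actb was one of the 11, with a dim probe set at 7.21 and 7.56 in SAHA and 6.76 and 6.89 in control cells, which gave 0.55 beside 4 bright ones at -0.09 to -0.03. Arpc2 had a second probe set at 7.05 and 6.76 in SAHA and 6.18 and 5.65 in control cells, which gave 0.99 (adjusted p = 0.138) beside the bright one at 0.00.

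Of 109 further actin pathway genes outside the 47, 99 were measured, and 1 rose and 2 fell, or 3.03% beside the 2.23% of all genes. Their median log2 difference was -0.03. Enah (Mena, of the Ena/VASP family that keeps filament ends growing and recruits profilin) read 9.72 and 9.42 in SAHA and 8.54 and 8.54 in control cells, a rise of 2.04-fold (log2 1.03 ± 0.16, SE, adjusted p = 0.0386). Its relative Evl read 10.23 and 10.30 in SAHA and 11.48 and 11.42 in control cells, 2.28-fold lower with SAHA (log2 -1.19 ± 0.12, adjusted p = 0.0146), and the remaining relative Vasp, named after its value was seen, was at -0.19 ± 0.12 (adjusted p = 0.454). Scin (scinderin, a severing protein of the gelsolin family) read 6.14 and 6.66 in SAHA and 7.64 and 8.05 in control cells, 2.72-fold lower with SAHA (log2 -1.44 ± 0.24, adjusted p = 0.0407). In each of these 3 genes the groups did not overlap. Further Evl probe sets gave -1.24, -0.56 and -0.65, whereas those of Enah with every array above the 25th percentile ranged from -0.07 to 0.86, and with probe sets averaged neither gene passed (adjusted p = 0.0783 for Evl and 0.153 for Enah). Each call was lost without SAHA replicate 1 (adjusted p = 0.232 for Enah, 0.101 for Evl and 0.197 for Scin) and without SAHA replicate 2 (0.0815, 0.0581 and 0.0628), and those of Enah and Scin also without control replicate 2 (0.0603 and 0.0592). The factors that carry actin state to the genome gave -0.25 for Mrtfa, 0.00 for Mrtfb and 0.05 for Srf, with no call among the 8 genes of adhesion sites and this control. Likewise none passed among 7 further actins and smooth muscle-type genes, 13 monomer binders and capping genes, and 16 myosin regulators.

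**Figure D4:**
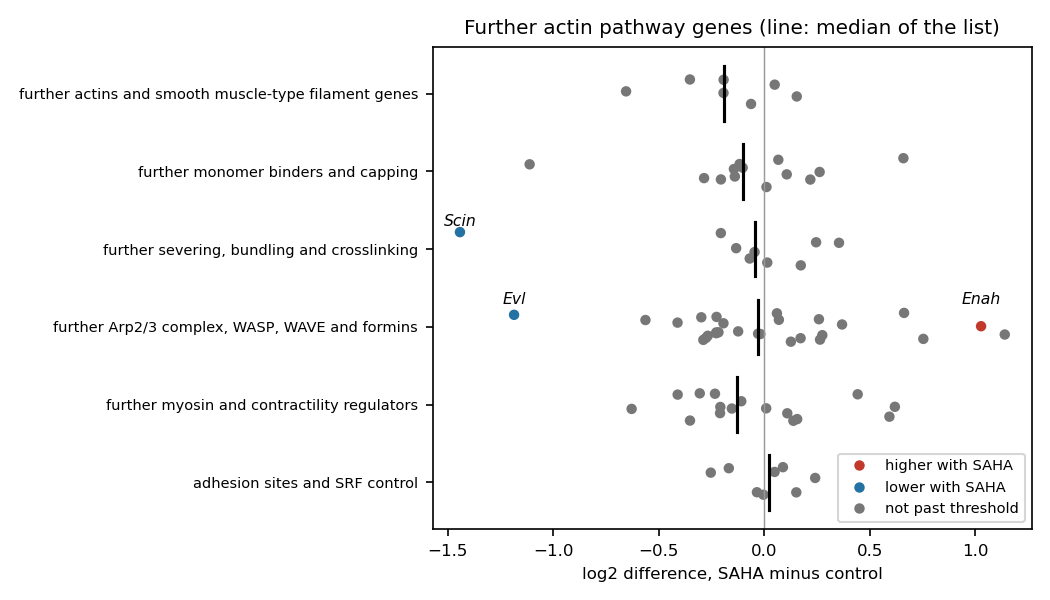
Log2 difference between SAHA and control for 80 further actin pathway genes, 1 point a gene, by list, with a line at each list's median. Enah (1.03) lies on the higher side and Evl (-1.19) and Scin (-1.44) on the lower, and the list medians lie between -0.19 and 0.02.

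Promoters are shown for the pair that rose most and for the profilin that fell, to set their letters beside their values. Each run is RefSeq sequence of build GRCm38.p6, 250 bases before to 50 bases after the gene's start, on the gene's strand. Capitals mark GC boxes (GGGCGG, bound by SP1-type factors) and CCAAT boxes (CCAAT, bound by NF-Y), searched on both strands and allowed to share letters. The Pfn2 run is chr3:57847708-57848007, minus strand, the Cnn3 run chr3:121426291-121426590, plus strand, and the Pfn1 run chr11:70654601-70654900, minus strand.
Pfn2: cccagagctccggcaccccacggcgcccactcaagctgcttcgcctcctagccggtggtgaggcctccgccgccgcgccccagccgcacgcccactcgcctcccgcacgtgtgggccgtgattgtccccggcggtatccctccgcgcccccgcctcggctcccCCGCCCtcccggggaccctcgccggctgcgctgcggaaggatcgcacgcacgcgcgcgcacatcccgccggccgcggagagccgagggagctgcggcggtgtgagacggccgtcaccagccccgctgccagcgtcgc
Cnn3: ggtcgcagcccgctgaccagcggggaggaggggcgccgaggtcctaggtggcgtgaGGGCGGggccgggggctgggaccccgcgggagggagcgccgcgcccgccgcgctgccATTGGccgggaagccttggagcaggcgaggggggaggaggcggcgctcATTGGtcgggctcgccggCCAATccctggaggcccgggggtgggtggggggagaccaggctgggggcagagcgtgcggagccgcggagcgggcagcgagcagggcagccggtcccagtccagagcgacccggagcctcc
Pfn1: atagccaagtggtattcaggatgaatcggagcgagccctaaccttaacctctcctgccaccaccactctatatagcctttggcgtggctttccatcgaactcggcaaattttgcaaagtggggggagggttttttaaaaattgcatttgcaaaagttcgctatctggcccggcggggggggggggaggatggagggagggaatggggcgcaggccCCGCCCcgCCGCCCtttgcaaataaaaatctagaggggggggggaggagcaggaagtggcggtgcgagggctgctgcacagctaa

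The G and C content was 77.7% for Pfn2 and 78.3% for Cnn3, against a median of 52.7% over 32851 promoters. Gsn, which also rose, has 3 RefSeq promoters, at 63.7%, 54.7% and 58.7%, and the genes that fell were at 57.0% (Pfn1) and 58.0% (Capg), so the content did not separate the directions. Pfn2 and Cnn3 held 45 and 33 CG dinucleotides, the Gsn promoters 20, 2 and 16, Pfn1 14 and Capg 7, against a median of 7 over all promoters. Pfn2 had 1 GC box and no CCAAT box, Cnn3 had 1 GC box and 3 CCAAT boxes, and Pfn1 had 2 GC boxes and no CCAAT box. RefSeq promoters were found for 39 of the 45 members, 51 in all. A GC box lay in 80.4% of these 51 and in 35.7% of all 32851 promoters, and a CCAAT box in 33.3% and 37.4%. Promoters of equal G and C content, or of equally bright genes, were not compared, so these shares cannot be read as a trait of the members. A TATA box (TATAAA, both strands) lay in 7.84% and 13.6%, among them that of Fscn1. The CArG box of serum response factor, a palindromic motif named here without its letters, lay in 9.80% of the 51 and in 1.63% of all promoters. This share rests on 5 member promoters and again on no matched set, so it too cannot be read as a trait of the members. The members that held the CArG box were Actg1, Cnn2, Myl6, Myl9 and Vil1, with log2 differences of -0.16, -0.14, 0.27, -0.19 and -0.11. None passed the threshold, and Myl9 and Vil1 were under the 25th percentile on every array. No match was found in this window for the 5 genes that passed, which says only that these letters are not in it.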

How the data were processed

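Total RNA (6 µg) was labelled with biotin for Affymetrix arrays, per the labels' protocols. Values deposited by the authors are on the log2 scale, 1 per probe set and array, from 2.59 to 14.97, with array medians of 5.34 to 5.35. The log2 scale was read from the values. The submitters' processing notes name R 2.7. The summarisation and normalization methods are not given in the sources used here. Of 45101 probe sets 34958 had 1 gene symbol, 932 several and 9211 none, in the platform annotation, which can be old. Symbols were updated through Entrez identifiers (34754 matched). Each gene was read by its probe set with the highest mean, control probe sets included, so Actb was read by one of these.

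The contrast of SAHA with control was fitted by lmFit and eBayes with an intensity trend (limma 3.58.1 under R 4.3.3), two-sided, over all 18194 genes, with Benjamini-Hochberg adjusted p under 0.05, no filter and no covariate. Values of 4 measured members and of 19 further pathway genes, all part of the counts, are not reported here. Single probe sets were fitted over all probe sets. The 25th percentile of each array marked dim values. The fit was tested on simulated data. Those arrays were independent and drawn from the fit's own spread model, so this checks the code and not the calls. Arrays give no read depth, and their number limits the precision. Members, role groups, pathway and marker lists were chosen with earlier results of these data known. Values on each array are given for members past the threshold, for Pfn2 and Cnn3 by probe set, and for the highest and lowest member of each role; pathway genes are named where they passed. Alternatives were 2 other spread models, 2 normalizations, 2 treatments of dim values, averaged probe sets, a replicate block, fits without each array and, added later, a fit without control probe sets.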

Additional observations from a re-analysis of the deposited data

How the results depend on the processing

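Of the 5 actin genes past the threshold, Pfn2 and Cnn3 alone passed without each array in turn. The count of 5 was 2 without the intensity trend (Pfn2 and Cnn3, where 2.30% of all genes passed), 1 with averaged probe sets (Cnn3, where 1.51% passed) and 2 to 4 without 1 array, among them Fscn1 without control replicate 1. Over all genes the count of 405 was 226 among genes above the median level, of which fewer were tested, and 31 to 529 without 1 array (31 without SAHA replicate 1 and 90 without SAHA replicate 2). The 3 further pathway genes became 1 with averaged probe sets and 0 to 4 without 1 array, where 0 came from limma without SAHA replicate 1 (15 at an unadjusted p under 0.05) and without SAHA replicate 2 (14). With values floored at the 20th percentile limma called 0 genes, 0 members and 0 further genes, with 3034, 11 and 22 at an unadjusted p under 0.05, and the cause was not tested. With the replicate block the counts were 3616 genes, 17 members and 28 further genes, and Dstn, Msn, Actg1, Actn1, Cfl1, Flna, Fscn1, Tpm1, Tpm4 and Was were among the members added. Replicate numbers are not said to mark shared cultures, and the deviations of same-numbered arrays from their group means correlated at 0.567 across genes, a hint from the data and not from the design. The members' median of -0.10 was -0.0906 among genes above the median level, -0.0739 with the floor, -0.0289 with averaged probe sets and -0.12 to -0.0495 without 1 array. Signs turned for Actb with averaged probe sets (0.0680) and in its dim probe set (0.55), for Tpm1 (0.39) and Enah (-0.0732) in 1 probe set each, for Actn4 without SAHA replicate 1 (-0.13) or control replicate 2 (-0.07, within -0.13 to 0.50 over such fits), and for Diaph1 in the same fits (-0.0045 and -0.0490, within -0.0490 to 0.23), none of them past the threshold under that setting. A lone array was assumed to vary like the other group. Of 299 further values of 23 named genes 246 kept direction and side of the threshold, 37 lost the threshold and 11 gained it, 10 of these under the block.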
